A study of Homo sapiens with 6 samples.

Results

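BEX3, also known as NADE, encodes a small adaptor protein that binds the death domain of the p75 neurotrophin receptor, and it is described here together with its close relatives BEX1, BEX2 and BEX4, the receptor gene NGFR, the co-receptor gene SORT1 and the receptor-binding proteins MAGED1 and TRAF6. The 8 genes were chosen by the measured difference of BEX3 between si-SMAD3 and si-Control arrays, and the others are its family members and known partners, so the BEX3 values of that comparison are given as a description with no test. A gene was found through the probe set that carries its symbol alone, and the brightest one would be taken where a gene had several. Each of the members found had 1 probe set. This gave 7 of the 8 genes, out of 33458 genes named on the array, and SORT1 was not analysed here. BEX3, BEX4, MAGED1 and TRAF6 were among the 20590 genes with a mean log2 value of at least 3.93, the median of all probe sets, which were tested. BEX1, BEX2 and NGFR lay below that filter.

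The cells were TPC-1, a line established from a papillary carcinoma of the human thyroid, harvested 24 h after transfection with 25 pmol of an siRNA against SMAD3 (si-SMAD3, 3 arrays) or of a control siRNA (si-Control, 3 arrays). Both groups received the same lipid reagent, neither the titles nor the protocols name an added ligand, and the experiment was done at 3 separate times, which are taken here as replicates 1, 2 and 3. A single siRNA label stands for the knockdown in all arrays. Since each sample is a whole culture, fewer cells with a transcript and less transcript per cell cannot be told apart.

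The p75 receptor, a member of the tumour necrosis factor receptor superfamily, has no kinase of its own and signals through proteins that gather on its intracellular part. With sortilin, the product of SORT1, it forms the receptor for proneurotrophins, while with Trk kinases it takes part in the response to mature neurotrophins. BEX3 and MAGED1 are adaptors linked to cell death downstream of the receptor, and TRAF6 is a ubiquitin ligase that leads towards NF-kB and JNK activation. The BEX genes lie in a cluster on the X chromosome together with the related TCEAL genes.

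SMAD3, the targeted gene, had log2 values of 14.20, 14.21 and 14.67 in si-Control replicates 1, 2 and 3 and 10.58, 10.03 and 10.27 in the si-SMAD3 replicates. All knockdown arrays lay far below all control arrays. The difference was -4.06 (SE 0.22), and limma's moderated test gave an adjusted p of 0.00044 (Benjamini-Hochberg over 20590 genes). SMAD3 was the 1 gene past the adjusted threshold of 0.05, which is 0.00486% of the genes tested. Both replicate 2 arrays stood apart on the first principal component, which held 29.3% of the variance, where the si-Control one scored 23.6, the si-SMAD3 one 39.5 and the other arrays between -28.1 and -6.15. Of 7 thyroid markers with a probe set, PAX8 (log2 mean of the 6 arrays 13.63), FOXE1 (6.98) and HHEX (4.27) lay above the filter and TG, TSHR, SLC5A5 and NKX2-1 below it. Of 6 epithelial markers, KRT8 (15.03), KRT18 (13.62), KRT7 (7.87) and KRT19 (5.07) lay above it and CDH1 and EPCAM below.

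BEX3 was well expressed and lower in every knockdown array. Its log2 values were 12.83, 13.31 and 13.94 in si-Control replicates 1, 2 and 3, and 11.06, 11.16 and 11.01 in si-SMAD3 replicates 1, 2 and 3. The groups did not overlap, and the lowest control array lay 1.67 above the highest knockdown array. The group means were 13.36 ± 0.55 and 11.08 ± 0.08 (SD, n = 3), a log2 difference of -2.28 (SE 0.27), or a 4.87-fold lower level on the scale of the deposited values. Among the genes tested this was the lowest difference after that of SMAD3. Without both replicate 2 arrays the difference was -2.35.

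The spread of BEX3 lay in the control arrays. They covered 1.11 log2 units, while the knockdown arrays covered 0.15. Within the experiments of replicates 1, 2 and 3 the difference was -1.78, -2.15 and -2.93, and the differing part was mainly the control value. The control SD of 0.55 compares with a median control SD of 0.22 over the 613 genes whose control mean lay within 0.5 of that of BEX3, and 4.24% of those genes had a control SD at least as large. The median knockdown SD of the same genes was 0.19, and 14.0% of them had a knockdown SD at least as small as that of BEX3. Among the control arrays, replicate 3 had the highest value of BEX3 and SMAD3, and also of NGFR, MAGED1 and TRAF6. For BEX1 and BEX4 the highest control array was replicate 2, and for BEX2 it was replicate 1.

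**Figure D1:**
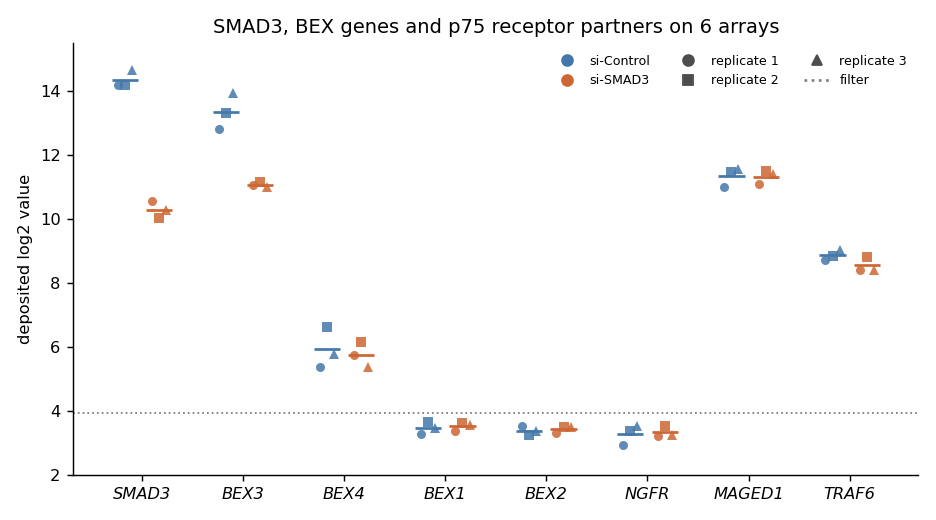
Deposited log2 values (vertical axis) of SMAD3 and the 7 genes found, with blue for si-Control and orange for si-SMAD3, 1 symbol per array with its shape giving the replicate, bars at group means and a dotted line at the filter of 3.93. SMAD3 and BEX3 have separate groups, while the groups of BEX4, BEX1, BEX2, NGFR, MAGED1 and TRAF6 overlap.

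BEX4, which encodes a relative of BEX3 that has been linked to microtubules, was above the filter at lower values. It was measured at 5.38, 6.63 and 5.79 in si-Control replicates 1, 2 and 3 and at 5.74, 6.15 and 5.37 in the si-SMAD3 replicates. The replicate 2 array was the highest in both groups, and the groups overlapped. The difference was -0.18 (SE 0.33, 95% interval -0.93 to 0.58), with an adjusted p of 0.99 by limma, and it was -0.03 without both replicate 2 arrays. Within the experiments it was 0.36, -0.47 and -0.42, so the direction was not shared.

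BEX1 and BEX2, relatives known mainly from nervous tissue, gave no values above the filter. BEX1 lay between 3.28 and 3.66 with control siRNA and between 3.38 and 3.61 with SMAD3 siRNA, and BEX2 between 3.24 and 3.53 and between 3.32 and 3.50. Their group means differed by 0.05 each, less than the control SD of 0.19 for BEX1 and 0.15 for BEX2. BEX5, a further relative, had a 6-array mean of 3.51, also below the filter. At this signal a lower level after knockdown was not detectable in BEX1, BEX2 or BEX5.

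The start regions of the 4 BEX genes are shown because the printed windows fall into pairs by sequence. Each is 300 bases from RefSeq on GRCh38.p14, from 250 bases before to 50 after an annotated start. RefSeq's table gives 3 such windows for BEX3 and 2 for BEX4, and the window most like another family member is printed. Capitals mark CACGTG, the E-box core that reads the same on both strands, and CAGAC or its reverse complement GTCTG, the core of the SMAD binding element.
BEX3, chrX:103376288-103376587, plus strand: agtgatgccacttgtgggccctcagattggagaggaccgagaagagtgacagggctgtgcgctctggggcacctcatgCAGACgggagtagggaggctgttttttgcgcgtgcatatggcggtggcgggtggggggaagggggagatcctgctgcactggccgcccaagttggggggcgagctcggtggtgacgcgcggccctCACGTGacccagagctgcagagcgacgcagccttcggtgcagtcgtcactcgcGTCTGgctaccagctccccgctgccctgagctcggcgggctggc
BEX1, chrX:103064122-103064421, minus strand: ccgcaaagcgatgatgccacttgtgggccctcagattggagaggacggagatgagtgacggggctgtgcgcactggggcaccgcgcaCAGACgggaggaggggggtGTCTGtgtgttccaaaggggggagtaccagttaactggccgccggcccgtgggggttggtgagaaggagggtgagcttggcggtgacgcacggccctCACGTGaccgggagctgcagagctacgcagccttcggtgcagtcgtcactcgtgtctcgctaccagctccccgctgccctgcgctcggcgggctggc
BEX4, chrX:103214858-103215157, plus strand: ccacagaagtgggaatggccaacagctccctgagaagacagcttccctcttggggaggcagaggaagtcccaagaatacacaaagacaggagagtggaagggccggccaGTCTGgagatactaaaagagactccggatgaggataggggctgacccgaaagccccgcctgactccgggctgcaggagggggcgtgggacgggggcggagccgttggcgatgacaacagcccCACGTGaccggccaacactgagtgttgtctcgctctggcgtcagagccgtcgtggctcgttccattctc
BEX2, chrX:103310941-103311240, minus strand: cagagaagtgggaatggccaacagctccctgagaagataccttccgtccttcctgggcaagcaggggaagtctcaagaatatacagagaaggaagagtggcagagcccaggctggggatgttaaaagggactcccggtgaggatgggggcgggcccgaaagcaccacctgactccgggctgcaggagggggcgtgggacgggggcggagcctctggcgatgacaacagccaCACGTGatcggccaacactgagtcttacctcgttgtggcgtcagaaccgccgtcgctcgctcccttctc

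The windows of BEX3 and BEX1 were 73.5% identical in a global alignment with gaps, and those of BEX4 and BEX2 83.6%, against 45.3% to 49.3% for the other pairs among the 4. The windows of BEX3 that are not printed were 48.7% and 48.4% identical to that of BEX1. BEX3 and BEX1 share an unbroken run of 35 bases, and BEX4 and BEX2 one of 45. CACGTG occurs once in each of the printed windows, beginning 47 bases before the start in BEX3 and BEX1 and 19 bases before it in BEX4 and BEX2, and it occurs in 7.26% of the 35116 windows of this length in the table. It was chosen after the sequences had been read, and the printed windows of BEX3 and BEX4 for their likeness to a relative, so its presence in all 4 is not set against that share. The other 2 windows of BEX3 and both windows of BEX5 hold no CACGTG, and the other window of BEX4, which overlaps the printed one, holds it. CAGAC on either strand occurs 2 times in the BEX3 window, 2 times in that of BEX1, 1 time in that of BEX4 and not in that of BEX2, and 45.3% of all windows hold it. The palindrome GTCTAGAC occurs in none of the 4 and in 0.202% of all windows. On the array, 1 gene of each pair was above the filter (BEX3 and BEX4) and 1 below it (BEX1 and BEX2). A match is a description of the letters, and which start is used in TPC-1 cells was not measured.

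The other genes around BEX3 on the X chromosome had differences nearer to 0. Of the 8 protein-coding genes on either side in RefSeq's order, 15 of 16, BEX1, BEX2 and BEX4 among them, had a probe set and 10 were tested, of which 5 lay above and 5 below 0. Their differences ran from -0.28 to 0.42, with a median of -0.01, and in none did the groups separate, where 11.0% of all genes tested had groups that did not overlap. The smallest adjusted p was 0.92 by limma. TCEAL9, the nearest of them on one side, had 8.83, 9.73 and 9.24 with control siRNA and 9.05, 9.16 and 8.74 with SMAD3 siRNA, a difference of -0.28 (SE 0.26). The knockdown values of TCEAL9 lay within or just below the control range. MORF4L2, a chromatin protein gene further along and bright on the array, differed by 0.08 (SE 0.20).

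**Figure D2:**
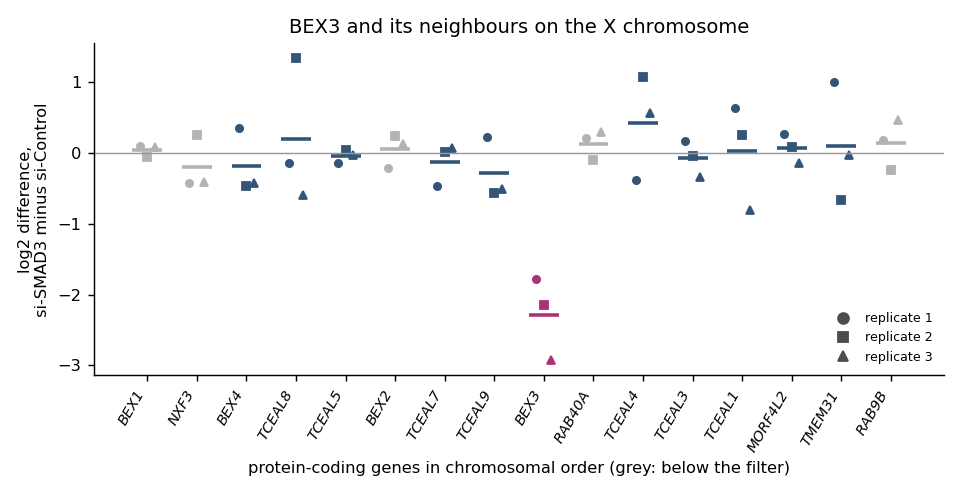
Log2 difference of si-SMAD3 minus si-Control (vertical axis) for BEX3 and its protein-coding neighbours in chromosomal order, with symbols for the 3 experiments, bars at the mean and grey for genes below the filter. BEX3 lies at -2.28 and the tested neighbours between -0.28 and 0.42.

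A wider list of relatives from this X-chromosomal region also held no called gene. The tested TCEAL neighbours of BEX3 and MORF4L2 are in this list too, so it is not a separate observation. All 22 genes had a probe set, 19 were tested, and 11 lay above and 8 below 0. By limma none passed the adjusted threshold, where 0.00486% of all genes tested did. An unadjusted p under 0.05 was found for 0 of them and for 1182 of the 20590 genes tested. The median difference was 0.03, beside 0.02 over all genes tested, and the median size 0.12, beside 0.17. TCEAL8 differed by 0.20 (SE 0.33), with a knockdown value of 9.91 in replicate 2 against 8.94 and 8.78 in replicates 1 and 3. The largest differences were those of GPRASP2 (0.54) and GPRASP3 (0.43), which encode proteins that bind or resemble binders of G protein-coupled receptors on their way to degradation, and both had overlapping groups.

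NGFR, the gene of the p75 receptor itself, was below the filter on all arrays. Its log2 values were 2.94, 3.37 and 3.54 in si-Control replicates 1, 2 and 3 and 3.22, 3.52 and 3.26 in the si-SMAD3 replicates. The groups overlapped, and the means differed by 0.05, less than the control SD of 0.31. NTRK2, a Trk receptor gene, lay below the filter too, at a 6-array mean of 3.39. So did the sortilin relatives SORL1 (3.29), SORCS1 (3.76) and SORCS3 (3.20). Not all genes of these families did: the Trk receptor gene NTRK3 lay just above the filter. The sortilin relative SORCS2 lay well above it, at a 6-array mean of 6.76. Both NTRK3 and SORCS2 had overlapping groups. The arrays hold no detection call, so values below the filter give no proof of absence. The receptor protein was not measured.

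MAGED1, the adaptor also called NRAGE, was well above the filter, with nearly equal group means. Its log2 values were 11.00, 11.46 and 11.58 in si-Control replicates 1, 2 and 3 and 11.10, 11.50 and 11.40 in the si-SMAD3 replicates. In both groups replicate 1 was the lowest, and the groups overlapped almost fully. The difference was -0.01 (SE 0.22, 95% interval -0.51 to 0.48), with an adjusted p of 0.9995 by limma.

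TRAF6 had lower means after knockdown without passing the test. It was at 8.73, 8.86 and 9.05 in si-Control replicates 1, 2 and 3 and at 8.42, 8.81 and 8.42 in the si-SMAD3 replicates. The knockdown value was the lower one in each experiment, by a margin that ran from -0.05 to -0.63, and the si-SMAD3 replicate 2 array lay inside the control range. The difference was -0.33 (SE 0.20, 95% interval -0.78 to 0.12), with an adjusted p of 0.91 by limma. Without both replicate 2 arrays it was -0.47, with an adjusted p of 0.76.

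**Figure D3:**
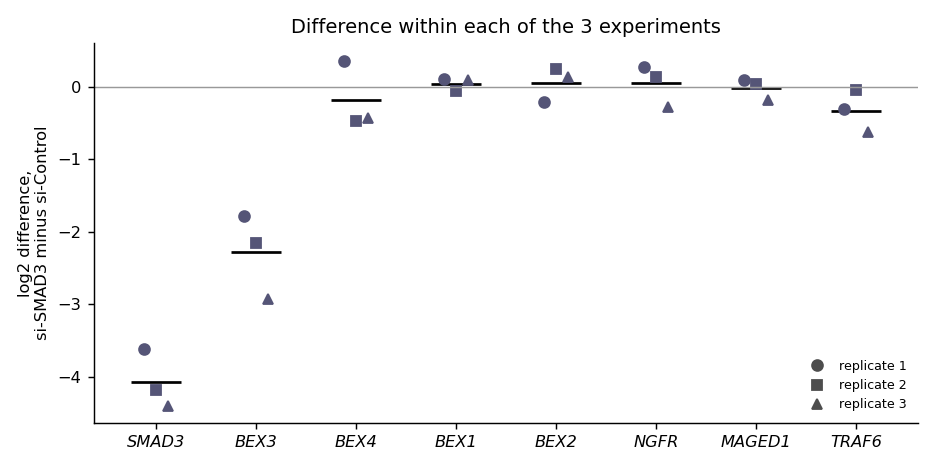
Log2 difference of si-SMAD3 minus si-Control (vertical axis) within each of the 3 experiments for SMAD3 and the 7 genes found, with symbols for the replicate and bars at the mean. For SMAD3 and BEX3 the 3 experiments lie at or below -1.78, while every other gene stays between -0.63 and 0.36.

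The other members were set against all genes tested. Of the 3 other members tested, 0 passed the adjusted threshold, where 0.00486% of all genes did, and 0 had groups that did not overlap, where 11.0% of all genes did. Their median difference was -0.18, beside 0.02 over all genes. Each had an unadjusted p above 0.05 by limma, where 1182 of all genes lay under it.

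**Figure D4:**
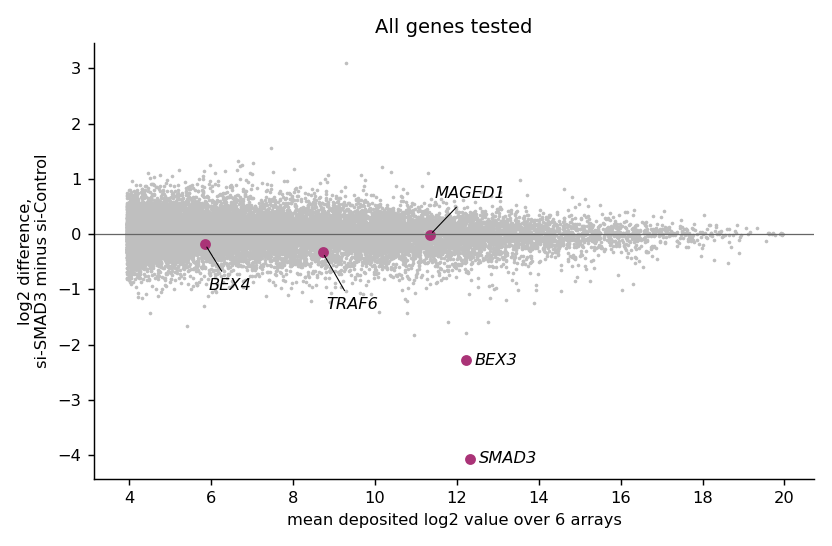
Mean log2 value over the 6 arrays (horizontal axis) against the log2 difference of si-SMAD3 minus si-Control (vertical axis) for the 20590 genes tested, in grey, with the members above the filter and SMAD3 marked. SMAD3 at -4.06 and BEX3 at -2.28 have the lowest differences, and BEX4, MAGED1 and TRAF6 lie within the grey band.

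No gene among the ligands and other receptor parts of the pathway passed the test. Of 18 listed genes 15 had a probe set and 8 were tested, of which 3 lay above and 5 below 0, with a median difference of -0.07. By limma the adjusted p was at least 0.92, where 0.00486% of all genes tested passed the threshold of 0.05. An unadjusted p under 0.05 was found for 0 of the listed genes and for 1182 of the 20590 genes tested. BDNF, a neurotrophin that binds p75 and the Trk receptor of NTRK2, was at 7.08, 7.35 and 8.66 with control siRNA and at 7.49, 7.49 and 7.98 with SMAD3 siRNA. Replicate 3 had the highest BDNF value in both groups, and the difference was -0.04 (SE 0.38). RTN4, which encodes the Nogo ligand of a receptor complex that can hold p75, differed by 0.17 with groups that did not overlap (16.57 to 16.70 against 16.75 to 16.86), and its adjusted p was 0.97 by limma. KIDINS220, a scaffold of neurotrophin receptors, differed by -0.12, the p75 co-receptor gene LINGO1 by 0.36 and the Nogo receptor gene RTN4R by 0.18. The listed genes without a probe set were not analysed here.

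Genes of proteins that act inside the cell downstream of the receptor lay mostly above the filter. Of 31 listed genes 28 had a probe set and 26 were tested, of which 12 lay above and 14 below 0, with a median of -0.01. None passed the adjusted threshold by limma, and 3 had an unadjusted p under 0.05, namely SMPD2, TRAF3 and BCL2L11, where 1182 of the 20590 genes tested did. In 2 genes all knockdown arrays were above all control arrays, and in 1 all were below, where this held for 5.75% and 5.28% of all genes. SMPD2, a neutral sphingomyelinase gene, had 4.68, 5.20 and 5.41 with control siRNA and 5.94, 5.72 and 6.28 with SMAD3 siRNA. All its knockdown arrays were higher, the difference was 0.88 (SE 0.25), and the adjusted p was 0.76 by limma. TRAF3, a TRAF adaptor that restrains non-canonical NF-kB signalling, had 10.29, 9.98 and 10.65 with control siRNA and 9.76, 9.74 and 9.63 with SMAD3 siRNA. All its knockdown arrays were lower, with a difference of -0.60 (SE 0.21) and an adjusted p of 0.82 by limma. The brightest genes of the list differed little: RHOA by -0.14, the 14-3-3 epsilon gene YWHAE, whose product has been reported to bind BEX3, by 0.05, and ARHGDIA by 0.10.

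None of the proteases that cut p75 or process its ligands passed the test. Of 14 listed genes 13 had a probe set and 9 were tested, 3 above and 6 below 0, with a median of -0.06. The groups separated downward for 2 of the 9 genes and upward for 0, where 5.28% and 5.75% of all genes did. The smallest adjusted p was 0.86 by limma, and 1 gene (ADAM17) had an unadjusted p under 0.05, where 1182 of the 20590 genes tested did. ADAM17, the sheddase of p75, had 11.22, 11.66 and 11.18 with control siRNA and 10.99, 11.01 and 10.39 with SMAD3 siRNA. Its groups did not overlap, with a difference of -0.56 (SE 0.24). APH1A, a gamma-secretase subunit gene, had 12.92, 12.92 and 13.02 with control siRNA and 12.52, 12.57 and 12.64 with SMAD3 siRNA, and differed by -0.37 (SE 0.17) with an adjusted p of 0.87. The related sheddase gene ADAM10 differed by -0.13 and the gamma-secretase subunit gene PSENEN by -0.08. FURIN, a proneurotrophin convertase, had a difference of 0.42 that lay mostly in the replicate 2 experiment (1.48, against 0.01 and -0.22 in replicates 1 and 3).

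Relatives of MAGED1 held no gene past the adjusted threshold by limma, where 0.00486% of all genes tested passed it. Of 10 listed genes 8 had a probe set and 5 were tested, 1 above and 4 below 0, with a median of -0.07. An unadjusted p under 0.05 by limma was found for 1 of the 5 (MAGEF1) and for 1182 of the 20590 genes tested. The groups separated downward for 1 of the 5 and upward for 0, where 5.28% and 5.75% of all genes did. MAGEF1 had 8.97, 8.78 and 9.18 with control siRNA and 8.68, 8.09 and 8.47 with SMAD3 siRNA. Its groups did not overlap, with a difference of -0.56 (SE 0.22) and an adjusted p of 0.86 by limma. MAGED2, which encodes another member of the D subfamily, differed by -0.08, and NSMCE3, a subunit of the SMC5/6 complex, by 0.07. NDN, the gene of the p75-binding protein necdin, lay below the filter at a 6-array mean of 3.05. The list of neural and Schwann cell markers, cell types in which p75 is well known, had array means of 3.85 to 4.03 with control siRNA and 3.87 to 4.12 with SMAD3 siRNA. Of its 5 genes with a probe set 4 lay below the filter, and SOX10 had a 6-array mean of 5.17. MAGEH1 and NDN are also in the list of intracellular genes.

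**Figure D5:**
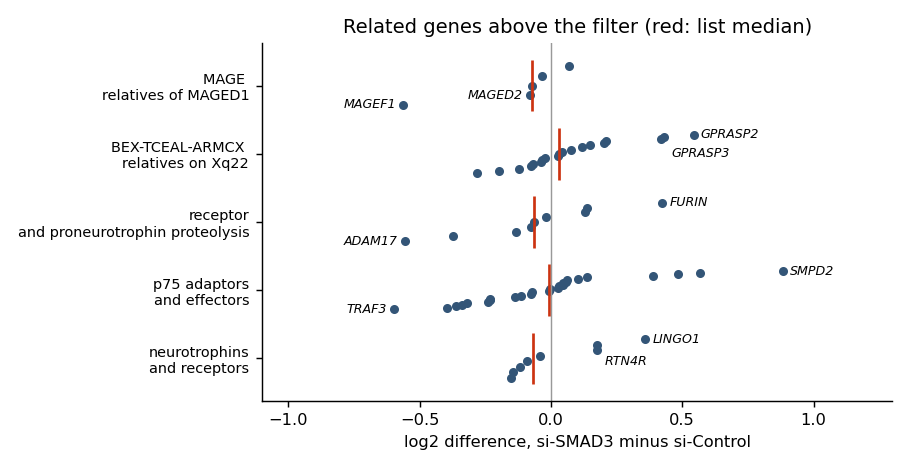
Log2 difference of si-SMAD3 minus si-Control (horizontal axis) for the tested members of 5 gene lists, 1 point per gene, with a red line at each list's median and names at the 2 largest differences. The medians lie between -0.07 and 0.03, and single genes between -0.60 and 0.88.

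The genes whose profile over the 6 arrays was most like that of BEX3 were VAMP7, FERMT2, IMMT, MAL2 and MIR4280. Likeness was the root mean square distance between profiles after subtracting each gene's mean, which was 0.42 for VAMP7, a SNARE of endosomes and lysosomes, 0.43 for the integrin activator gene FERMT2 and 0.48 for IMMT, a scaffold gene of the mitochondrial inner membrane. It was 0.57 for MAL2, a transcytosis protein gene, and 0.59 for the microRNA gene MIR4280, beside a median of 1.21 over all genes. A gene with equal values on all arrays would lie at 1.19, so that median is near the value of an unchanged gene. Counted from the lowest difference among the genes tested, VAMP7, FERMT2, IMMT, MAL2 and MIR4280 ranked 3, 7, 9, 4 and 5. These profiles come from the same 6 arrays and the same groups, and each of the 5 genes was lower in all knockdown arrays, which the choice by likeness to BEX3 favours. IMMT came nearest to the small spread of BEX3 with SMAD3 siRNA, at 10.06, 10.04 and 10.10 in si-SMAD3 replicates 1, 2 and 3 against 11.24, 11.54 and 11.69 in the si-Control replicates.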

How the data were processed

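Each probe set has 1 log2 value per array in the deposited table. Per the submitters' processing notes the authors made these values with RMA, run in Affymetrix Expression Console. Neither the software version nor the build is stated in the sources used here. RMA makes the arrays' distributions alike, so a global change in RNA cannot be seen. The values reach a ceiling of 19.93, and every log2 difference or fold refers to the deposited scale. The number of arrays limits the precision. Nothing states separate cultures beyond the 3 experiment times, so p-values measure the spread between these arrays.

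Probe sets with 1 symbol in the platform's table (36176 of 138745) were named, with symbols updated through RefSeq's gene table of GRCh38.p14; a gene with several was represented by the brightest. Genes with a mean of at least 3.93 were tested with limma 3.58.1 in R 4.3.3 (lmFit and eBayes, 2-sided, Benjamini-Hochberg adjustment over 20590 genes, threshold 0.05), without a covariate. The procedure was also run on simulated data drawn without a replicate effect, and no result here rests on that run. The members and gene lists were chosen with earlier results of these data known. Named list genes are the 3 brightest and the 2 with the largest difference of each list, and the 5 profiles nearest to BEX3 are named too. Other genes, such as those below the filter, NTRK3, SORCS2 and those in the marker sentence, were named after their values were seen. Alternatives were a replicate block, leaving out arrays, the mean of a gene's probe sets, no filter, an intensity trend with robust variance, all probe sets, and repeated quantile normalization.

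The design text puts the replicates at 3 times, so same-numbered arrays were taken as pairs. Their deviations from the group means correlated across genes at 0.15, 0.22 and 0.05 for replicates 1, 2 and 3, against -0.18 to 0.06 for differently numbered arrays, so for replicate 3 the pairing rests on the design text.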

Additional observations from a re-analysis of the deposited data

How the results depend on the processing

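The log2 difference of BEX3 kept its direction under the alternatives run. It ran from -2.55 (without si-Control replicate 1) to -1.99 (without si-Control replicate 3) when single arrays were left out, and was -2.28 with the replicate block and -2.26 after repeated quantile normalization. SMAD3 was the 1 gene past the adjusted threshold in each setting but that with an intensity trend and robust variance, where 5 genes passed by limma, all lower: SMAD3, BEX3, FERMT2, PRKAA1 and VAMP7; the cause was not tested. BEX3 was chosen by this same difference, so its place among the 5 is a description and supports nothing. With the replicate number as a block, 1 gene passed, and the block changed no call among the members. Leaving out both replicate 2 arrays or the 15 genes of almost no spread, or repeating the quantile normalization, alternatives added for this count after seeing the data, also left 1 gene. Among members that were not called, leaving out single arrays moved BEX4 from -0.46 to 0.17, MAGED1 from -0.19 to 0.10, TRAF6 from -0.46 to -0.24 and NGFR from -0.12 to 0.18. BEX4 turned positive without si-Control replicate 2 (0.17) or si-SMAD3 replicate 3 (0.01), and MAGED1 without si-Control replicate 2 (0.04) or 3 (0.10) or si-SMAD3 replicate 1 (0.10). BEX1, BEX2 and NGFR lie so near the lowest signals that changes in them could hardly be measured.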
